A study of Mus musculus with 12 samples.

Results

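Apoe, Clu, Lpl, Abca1, Spp1, Lgals3, Cst7, Axl, Cd68 and Ctsz carry or process lipids in the brain or mark the state that microglia take on around damaged tissue. These 10 genes were taken by symbol from the 23183 symbols listed for every library. The set was chosen by its levels in irradiated against control mice, with these results known, and Spp1 because its order was opposite in the 2 regions. Their levels in that comparison are therefore a description without a test, while hippocampus against prefrontal cortex, averaged over both treatments, was not used in the choice and was tested.

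RNA was sequenced from the brains of 6 male C57BL/6 mice, an inbred strain, with no transgene or deletion named. Abdominal X-irradiation, with 13 Gy in the library names, served as a model of chronic injury of the gut, and the control mice were not irradiated. The groups were irradiated hippocampus, control hippocampus, irradiated prefrontal cortex and control prefrontal cortex, each with 3 libraries from 3 mice, and every mouse gave 1 library per region. Neither the age of the mice nor the time after irradiation is given, and the study asked what differs in each brain region in the chronic phase.

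Apolipoprotein E and clusterin are the main lipid-carrying proteins that astrocytes release, and the transporter ABCA1 loads them with cholesterol and phospholipid. Microglia take up such particles and, around plaques, dying cells or damaged myelin, lower their resting markers and raise a set of genes for lipid handling, phagocytosis and lysosomal digestion. Apoe, Lpl, Cst7, Axl, Cd68, Ctsz, Spp1 and Lgals3 are commonly counted among these disease-associated genes, but in the whole brain Apoe and Clu come largely from astrocytes, and Spp1 is also made by some neurons and by fibroblasts of the brain's coverings.

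The promoters of Spp1, Apoe and Ctsz are shown because Spp1 was chosen for its opposite order in the 2 regions, Ctsz differed between treatments in hippocampus with the other sign, and Apoe was the most abundant of the set. Each line holds the 250 bases before the transcription start in RefSeq on GRCm38.p6 (the mm10 build), 5′ to 3′ on the gene's own strand. RefSeq promoters were found for 8 of the 10 genes, and Clu and Lpl are named without one. Capitals mark matches to motifs searched on both strands.
Spp1, chr5:104434861-104435110, plus strand: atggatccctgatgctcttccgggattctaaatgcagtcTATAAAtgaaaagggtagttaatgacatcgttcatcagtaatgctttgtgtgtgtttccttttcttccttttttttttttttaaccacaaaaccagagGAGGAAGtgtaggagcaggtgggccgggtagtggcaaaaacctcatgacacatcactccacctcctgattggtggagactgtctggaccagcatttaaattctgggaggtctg
Apoe, chr7:19699189-19699438, minus strand: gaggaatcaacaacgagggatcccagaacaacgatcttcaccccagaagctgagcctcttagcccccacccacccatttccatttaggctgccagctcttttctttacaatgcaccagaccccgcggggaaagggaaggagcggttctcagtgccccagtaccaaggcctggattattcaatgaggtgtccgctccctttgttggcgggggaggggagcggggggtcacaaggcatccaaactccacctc
Ctsz, chr2:174439040-174439289, minus strand: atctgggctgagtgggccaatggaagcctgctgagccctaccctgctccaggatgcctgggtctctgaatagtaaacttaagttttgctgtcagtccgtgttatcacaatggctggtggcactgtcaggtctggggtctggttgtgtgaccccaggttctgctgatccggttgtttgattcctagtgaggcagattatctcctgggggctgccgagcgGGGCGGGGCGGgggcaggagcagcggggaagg

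The Spp1 sequence held a PU.1 motif (GAGGAAG), named for a transcription factor of the myeloid lineage, at position -113 counted from the start, and TATAAA at -211. Ctsz held GC boxes (GGGCGG) at -32 and -27, which overlap by 1 base and read as one run of capitals. The Apoe sequence had no match. GAGGAAG was present in 10.6% of 32851 RefSeq promoters of the same length, TATAAA in 12.4% and GGGCGG in 32.7%. Of the 8 genes, 2 held GAGGAAG (Spp1 and Axl), 2 held TATAAA (Spp1 and Abca1), and 5 held GGGCGG. The AP-1 motif TGANTCA (6.75% of promoters) was found in Cd68 and the E-box CACGTG (6.02%) in Abca1. The DR4 element of the liver X receptor, a sterol receptor that acts on Apoe and Abca1, was searched only in its strict form. This form, with identical repeats, was in none of the 8 genes and in 0.0152% of promoters. Looser forms were not searched, so whether these promoters hold such an element was not tested. All matches named here are letters in a window and were not set against any binding data.

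The deposited values were read as FPKM, which scale a gene's fragments by transcript length and by the library's mapped total, a unit that can be compared between genes. Depth estimated from the smallest steps of the values was 15.6 to 19.0 M (mega) fragments per library, and between 12640 and 12967 genes reached 1 FPKM. Markers of hippocampal subfields summed to 151 to 173 FPKM in hippocampus, against 46.0 to 57.2 FPKM in prefrontal cortex. Striatal markers summed to only 64.9 to 117 FPKM in hippocampus, against 731 to 944 FPKM in prefrontal cortex, where markers of cortical layers summed to 171 to 212 FPKM. The prefrontal libraries thus carried markers of striatum as well as of cortex, and whether the dissection took in striatum was not tested. Hippocampus of irradiated mouse 2 stood apart from the other 5 hippocampi in markers of the choroid plexus, with a sum of 128 FPKM, against 3751 and 5394 FPKM in irradiated mice 1 and 3 and 4286 to 6667 FPKM in control mice. Hippocampal differences of the fitted genes of the set, and the irradiation counts of most gene lists there, are therefore also given without it. Differences of single genes of the lists are given with it only.

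The levels of the 10 genes spread widely, and some genes of the disease-associated state were close to the lowest levels the libraries could resolve. Apoe ranked 3rd to 9th among all genes in every library. Clu stood between 374 and 696 FPKM, Ctsz 21.4 to 31.7 FPKM, and Lpl, Abca1, Spp1, Axl and Cd68 between 2.05 and 15.3 FPKM. Lgals3 reached 0.127 to 2.69 FPKM, and Cst7 at most 0.494 FPKM, which corresponds to 0 to about 8 fragments in a library. The integrin Itgax averaged 0.0771 to 0.0941 FPKM over the 4 groups and the lectin Clec7a 0.140 to 0.318 FPKM, both defining surface genes of disease-associated microglia. Thus Cst7, Itgax and Clec7a, and Lgals3 in prefrontal cortex, were barely detected, and Itgax and Clec7a are outside the set. Other genes of the state were clearly detected. These were Cd68 and Ctsz of the set and, outside it, Trem2 and Tyrobp, with group means of 11.3 to 15.1 FPKM and 24.7 to 32.1 FPKM.

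**Figure D1:**
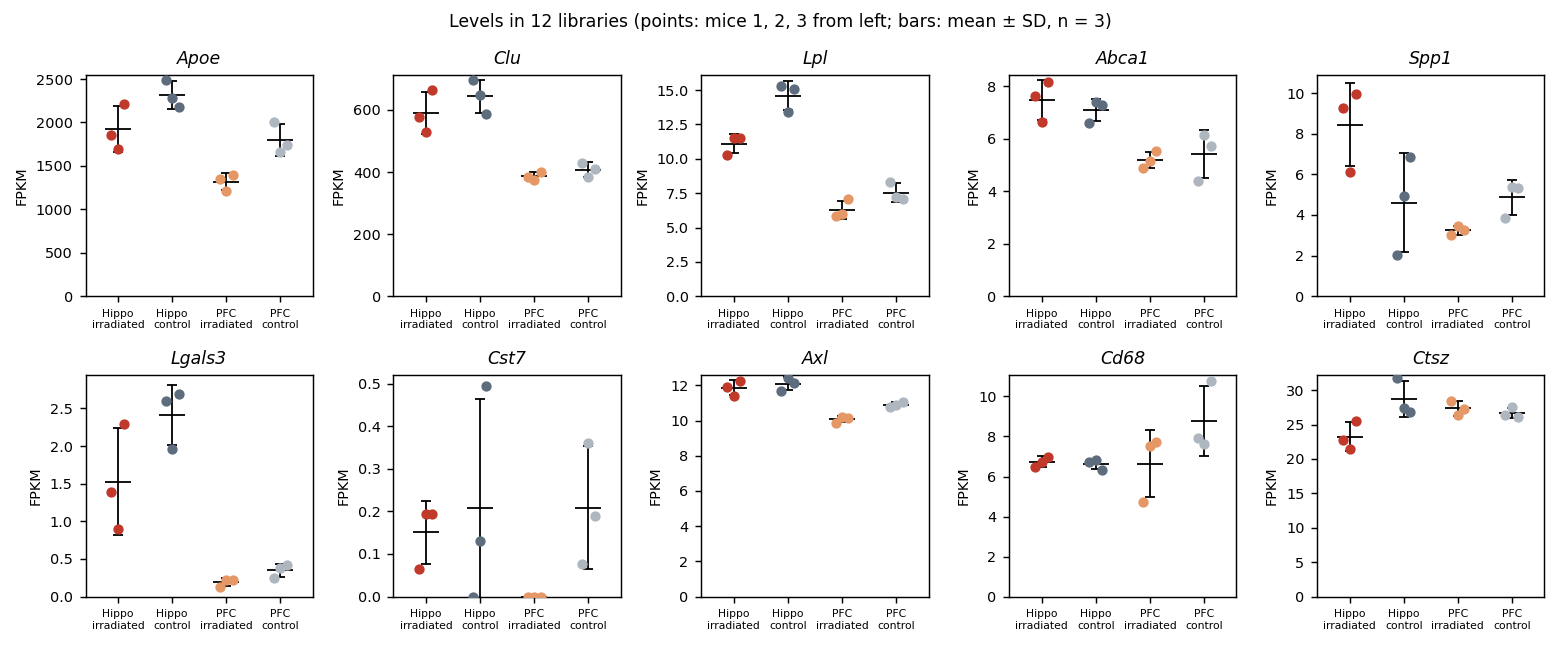
Levels of the 10 genes in FPKM (y axes, linear, each starting at 0) in irradiated and control hippocampus and irradiated and control prefrontal cortex; points are mice 1, 2 and 3 from left to right, and bars are mean ± SD (n = 3). The hippocampal groups lie above the prefrontal groups for Clu, Lpl, Abca1, Lgals3 and Axl, while Spp1 is highest in irradiated hippocampus and lowest in irradiated prefrontal cortex.

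Between irradiated and control mice most of the set stood lower, and Spp1 in hippocampus had the largest positive difference. In hippocampus, 9 of the 10 genes averaged 1 FPKM or more, and 6 of them had a negative difference (53% of all genes), with a median of -0.13 on the log2(FPKM + 1) scale, against -0.01 over all 12947 genes. In prefrontal cortex, 8 genes reached that level, and 7 had a negative difference (48.8% of all genes), with a median of -0.17, against 0.00 over all 12729 genes. All irradiated libraries lay below all control libraries for Lpl and Ctsz in hippocampus, as for 8.16% of genes, and for Apoe, Lpl, Spp1 and Axl in prefrontal cortex, as for 7.44% of genes. In prefrontal cortex the irradiated libraries also lay below the controls for Lgals3 and Cst7, which averaged under 1 FPKM and are outside that share. None of the 10 lay wholly above in either region, against 7.41% of genes in hippocampus and 6.25% in prefrontal cortex. The choice of the genes used these comparisons, so nothing is read from these shares. Over all genes, limma called 0 of 12947 in hippocampus (0%) and 1 in prefrontal cortex (0.00786%), the small nucleolar RNA Snora81, with 1361 (10.5%) and 920 genes (7.23%) at an unadjusted p under 0.05.

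Apoe, on chromosome 7 (mm10, 19696109 to 19699188, minus strand), encodes the main lipid carrier of the brain. In hippocampus it stood at 1854, 1700.4 and 2215 FPKM in irradiated mice, against 2488, 2284 and 2176 FPKM in control mice. Only irradiated mouse 3 reached the control range. The log2 difference was -0.27 ± 0.12 (SE), and -0.19 without irradiated mouse 2. In prefrontal cortex Apoe stood at 1345, 1209 and 1401 FPKM in irradiated mice, against 2003, 1656 and 1740.2 FPKM in control mice. Here the groups did not overlap, and the mean of 1318 ± 98.9 FPKM in irradiated mice compared with 1800 ± 181 FPKM in control mice (SD, n = 3 each; log2 difference -0.45 ± 0.11). In rank among all genes, Apoe was 7th to 9th in irradiated and 3rd to 5th in control prefrontal cortex.

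Clu, on chromosome 14 (65968483 to 65981547, plus strand), encodes clusterin, a lipid carrier and chaperone that is also called apolipoprotein J. It stood at 578, 528 and 664 FPKM in irradiated hippocampus, against 696, 648 and 588 FPKM in control hippocampus. In prefrontal cortex the values were 384, 374 and 399.7 FPKM in irradiated mice, against 431, 383 and 409 FPKM in control mice. The groups overlapped in both regions, with log2 differences of -0.13 ± 0.10 in hippocampus (-0.05 without irradiated mouse 2) and -0.08 ± 0.08 in prefrontal cortex. The lowest Clu value of each region belonged to irradiated mouse 2.

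Lpl, on chromosome 8 (68880491 to 68907448, plus strand), encodes lipoprotein lipase, which frees fatty acids from lipoprotein particles. It stood at 10.3, 11.5 and 11.5 FPKM in irradiated hippocampus, against 15.3, 13.4 and 15.1 FPKM in control hippocampus. In prefrontal cortex the values were 5.82, 6.01 and 7.05 FPKM in irradiated mice, against 8.32, 7.19 and 7.08 FPKM in control mice. Lpl was the single gene of the set below its controls in every library of both regions, by a wide gap in hippocampus and by a narrow one in prefrontal cortex. The log2 differences were -0.37 ± 0.07 in hippocampus, and -0.39 without irradiated mouse 2, and -0.23 ± 0.10 in prefrontal cortex.

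Abca1, on chromosome 4 (53030787 to 53159895, minus strand), encodes the transporter that moves cholesterol out of cells. It stood at 7.62, 6.66 and 8.19 FPKM in irradiated hippocampus, against 6.62, 7.39 and 7.29 FPKM in control hippocampus. In prefrontal cortex it stood at 4.91, 5.18 and 5.52 FPKM in irradiated mice, against 4.38, 6.15 and 5.73 FPKM in control mice. The groups overlapped in both regions. The log2 difference was 0.06 ± 0.09 in hippocampus (0.14 without irradiated mouse 2) and -0.04 ± 0.11 in prefrontal cortex, where it became 0.02 when all libraries were scaled to equal totals and 0.04 without control mouse 2.

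**Figure D2:**
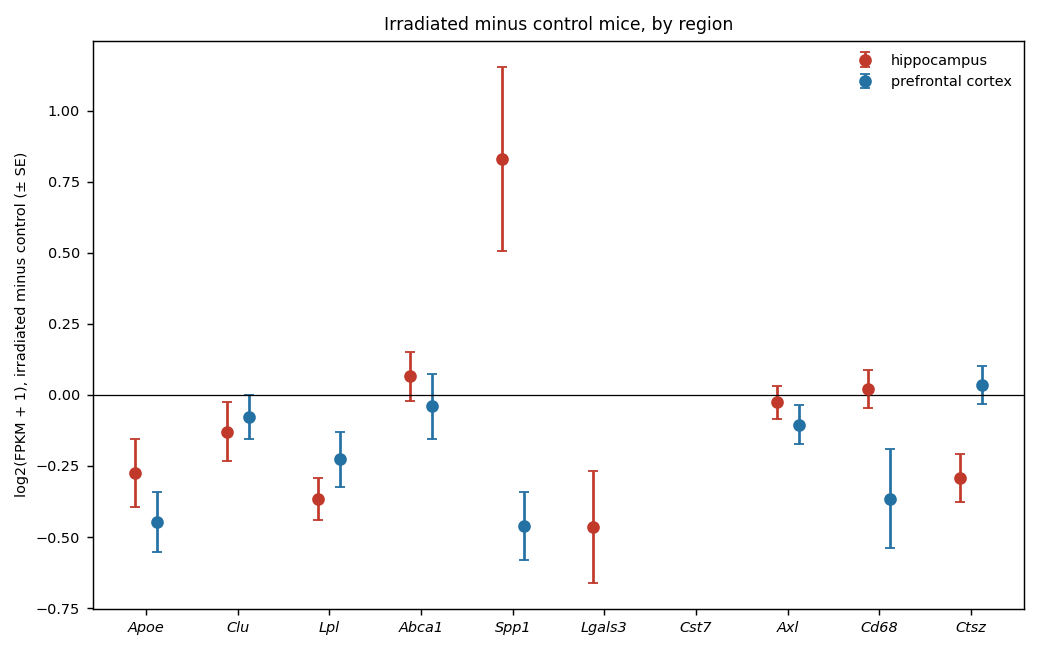
Difference between irradiated and control mice in hippocampus and in prefrontal cortex for each gene, as log2(FPKM + 1), with points for the estimate and bars for ± SE (n = 3 per group); Cst7 and, in prefrontal cortex, Lgals3 averaged under 1 FPKM and have no point. Spp1 stands at 0.83 in hippocampus and -0.46 in prefrontal cortex, and Lpl is negative in both.

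Spp1, on chromosome 5 (104435118 to 104441050, plus strand), encodes osteopontin, a secreted glycoprotein that binds integrins and CD44. In hippocampus it stood at 9.26, 6.10 and 9.96 FPKM in irradiated mice, against 2.05, 4.92 and 6.87 FPKM in control mice. Irradiated mice 1 and 3 exceeded every control, and irradiated mouse 2 fell between control mice 2 and 3. The mean was 8.44 ± 2.05 FPKM in irradiated hippocampus, against 4.61 ± 2.43 FPKM in control hippocampus (SD, n = 3 each), a log2 difference of 0.83 ± 0.33. It was 0.44 without control mouse 1, the lowest library of all 12, and 1.02 without irradiated mouse 2.

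In prefrontal cortex the order of Spp1 was the opposite. It stood at 2.99, 3.45 and 3.28 FPKM in irradiated mice, against 3.87, 5.40 and 5.33 FPKM in control mice, and the groups did not overlap. The mean was 3.24 ± 0.229 FPKM in irradiated prefrontal cortex and 4.87 ± 0.862 FPKM in control prefrontal cortex (SD, n = 3 each), a log2 difference of -0.46 ± 0.12. The difference in hippocampus minus that in prefrontal cortex was 1.29 ± 0.38, and 0.90 without the hippocampus of control mouse 1. This opposite order is what Spp1 was chosen for. Over all 12894 genes limma called 0 (0%) for this contrast, with 422 (3.27%) at an unadjusted p under 0.05.

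Within single mice, hippocampus exceeded prefrontal cortex in Spp1 by ratios of 3.09, 1.77 and 3.04 in the irradiated mice, against 0.530, 0.911 and 1.29 in the control mice. All irradiated ratios lay above all control ratios. This restates the opposite order for which Spp1 was chosen, so nothing is read from it. In the order of group means, irradiated hippocampus stood apart from control prefrontal cortex in every library, while control prefrontal cortex, control hippocampus and irradiated prefrontal cortex each overlapped with the next. Both hippocampal groups spread more widely than the prefrontal groups, and irradiated prefrontal cortex had the narrowest spread. The annotation places the predicted gene Gm42793 on the same strand over 1252 bases of Spp1, and the files list no value for it.

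Lgals3, on chromosome 14 (47367751 to 47386160, plus strand), encodes galectin-3, a sugar-binding protein of phagocytes and a ligand of the microglial receptor TREM2. It stood at 1.39, 0.899 and 2.29 FPKM in irradiated hippocampus, against 2.59, 1.96 and 2.69 FPKM in control hippocampus. The groups overlapped through irradiated mouse 3, and the log2 difference of -0.46 ± 0.20 was -0.28 without irradiated mouse 2 and -0.71 with a pseudocount of 0.1. In the prefrontal cortex the gene stood at 0.127, 0.221 and 0.215 FPKM in irradiated mice, against 0.252, 0.382 and 0.419 FPKM in control mice. Every irradiated value was lower, but the values rest on about 3 to 11 fragments per library, and the gene averaged under 1 FPKM and was not fitted there.

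Cst7, on chromosome 2 (150570415 to 150578944, plus strand), encodes cystatin F, an inhibitor of lysosomal proteases. It was listed at 0.0647, 0.194 and 0.193 FPKM in irradiated hippocampus, against 0, 0.130 and 0.494 FPKM in control hippocampus. In prefrontal cortex it was listed at 0 in all 3 irradiated mice, against 0.0760, 0.361 and 0.190 FPKM in control mice. The highest value equals about 8 fragments and the lowest above 0 about 1, so no fold change is given.

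Axl, on chromosome 7 (25757273 to 25788705, minus strand), encodes a receptor kinase through which phagocytes recognise dying cells. It stood at 11.9, 11.4 and 12.3 FPKM in irradiated hippocampus, against 11.7, 12.4 and 12.2 FPKM in control hippocampus. In prefrontal cortex it stood at 9.87, 10.2 and 10.1 FPKM in irradiated mice, against 10.8, 10.9 and 11.1 FPKM in control mice. The hippocampal groups overlapped, with a log2 difference of -0.03 ± 0.06 that was -0.00 without irradiated mouse 2 and became 0.05 at equal totals. The prefrontal groups did not overlap, yet differed by only -0.10 ± 0.07, or -0.03 at equal totals.

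Cd68, on chromosome 11 (69664213 to 69666153, minus strand), encodes a lysosomal membrane protein that rises in phagocytic microglia. It stood at 6.46, 6.74 and 7.0 FPKM in irradiated hippocampus, against 6.74, 6.80 and 6.35 FPKM in control hippocampus. In the prefrontal cortex the gene stood at 4.73, 7.51 and 7.71 FPKM in irradiated mice, against 7.93, 7.63 and 10.8 FPKM in control mice. The hippocampal groups overlapped, with a log2 difference of 0.02 ± 0.07 that was 0.02 without irradiated mouse 2 and -0.01 without irradiated mouse 3. The prefrontal difference of -0.37 ± 0.17 moved most with a single library in each group, being -0.17 without irradiated mouse 1 and -0.22 without control mouse 3.

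Ctsz, on chromosome 2 (174427493 to 174439039, minus strand), encodes cathepsin Z, a lysosomal protease. It stood at 22.8, 21.4 and 25.5 FPKM in irradiated hippocampus, against 31.7, 27.5 and 26.9 FPKM in control hippocampus. Prefrontal levels were 28.4, 26.3 and 27.3 FPKM in irradiated mice, against 26.4, 27.5 and 26.1 FPKM in control mice. All irradiated hippocampi were lower, by a log2 difference of -0.29 ± 0.08 (-0.24 without irradiated mouse 2), while the prefrontal groups overlapped at 0.03 ± 0.07. The difference between the regions was -0.33 ± 0.11, the opposite sign from that of Spp1. Ctsz overlaps Nelfcd on the other strand by 10 bases, and Nelfcd averaged 17.6 FPKM in irradiated against 17.5 FPKM in control hippocampus.

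Averaged over both treatments, Lpl, Clu, Apoe, Abca1 and Axl were called higher in hippocampus than in prefrontal cortex by limma, and 0 genes of the set were called lower. Spp1, Cd68 and Ctsz were not called. Lgals3 passed the 1 FPKM filter only through its hippocampal libraries and is given as a description, and Cst7 averaged under 1 FPKM. Across all 12894 genes 45.9% were called in either direction, 23.1% higher in hippocampus and 22.8% lower. All 6 hippocampal libraries lay above all 6 prefrontal libraries for Clu, Lpl, Abca1 and Axl, as for 12.1% of genes. It follows that each of these genes was higher in hippocampus in 6 of 6 mice. Apoe, whose libraries overlapped between the regions, was so too. The share of all genes with this order in 6 of 6 mice was not computed. The prefrontal libraries also held the striatal markers described above, whose part in the regional differences was not tested.

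Lpl differed by 0.80 ± 0.06 on the log2(FPKM + 1) scale (limma adjusted p = 2.79e-07), a ratio of mean FPKM of 1.86. Within mice the Lpl ratio of hippocampus to prefrontal cortex ran from 1.63 to 1.91 in irradiated mice and from 1.84 to 2.13 in control mice. Lgals3 averaged 1.53 ± 0.708 FPKM in irradiated and 2.42 ± 0.397 FPKM in control hippocampus, against 0.188 ± 0.0526 and 0.351 ± 0.0876 FPKM in irradiated and control prefrontal cortex (SD, n = 3 each). All its hippocampal values lay above all its prefrontal values, which rest on about 3 to 11 fragments per library. Its log2 difference was 1.19 ± 0.12, and 2.46 with a pseudocount of 0.1.

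Among the lipid carriers, Clu differed by 0.63 ± 0.06 (limma adjusted p = 3.61e-06) and Apoe by 0.45 ± 0.08 (limma adjusted p = 0.000393). The ratios of hippocampus to prefrontal cortex within a mouse were 1.41 to 1.66 in irradiated and 1.44 to 1.69 in control mice for Clu. For Apoe they were 1.38 to 1.58 in irradiated and 1.24 to 1.38 in control mice. Abca1 differed by 0.40 ± 0.07 (limma adjusted p = 0.000713) and Axl by 0.18 ± 0.04 (limma adjusted p = 0.0023), the smallest difference that passed. Its ratios within a mouse stayed between 1.09 and 1.21.

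Spp1, Cd68 and Ctsz did not pass in the main fit, which treats the 2 libraries of a mouse as independent. Spp1 differed by 0.49 ± 0.19 (limma adjusted p = 0.0537), and was higher in hippocampus in 4 of 6 mice. With the mouse as a block it passed (limma adjusted p = 0.0115), as it did without the hippocampus of control mouse 1 (0.68, limma adjusted p = 0.000972) or of irradiated mouse 2 (0.58, limma adjusted p = 0.025). As a description, its regional difference was 1.13 ± 0.16 in irradiated mice alone and -0.16 ± 0.29 in control mice alone, the libraries on which it was chosen. Cd68 differed by -0.15 ± 0.10 (limma adjusted p = 0.265) and was higher in hippocampus in 1 of 6 mice. Without the prefrontal cortex of irradiated mouse 1, which had the lowest Cd68 value of all, the difference was -0.25 and passed (limma adjusted p = 0.0219). Ctsz differed by -0.07 ± 0.05 (limma adjusted p = 0.349), with -0.23 ± 0.07 in irradiated mice alone and 0.10 ± 0.08 in control mice alone. The fit of irradiated mice alone called it (limma adjusted p = 0.0486), on libraries that were used in the choice of the set.

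**Figure D3:**
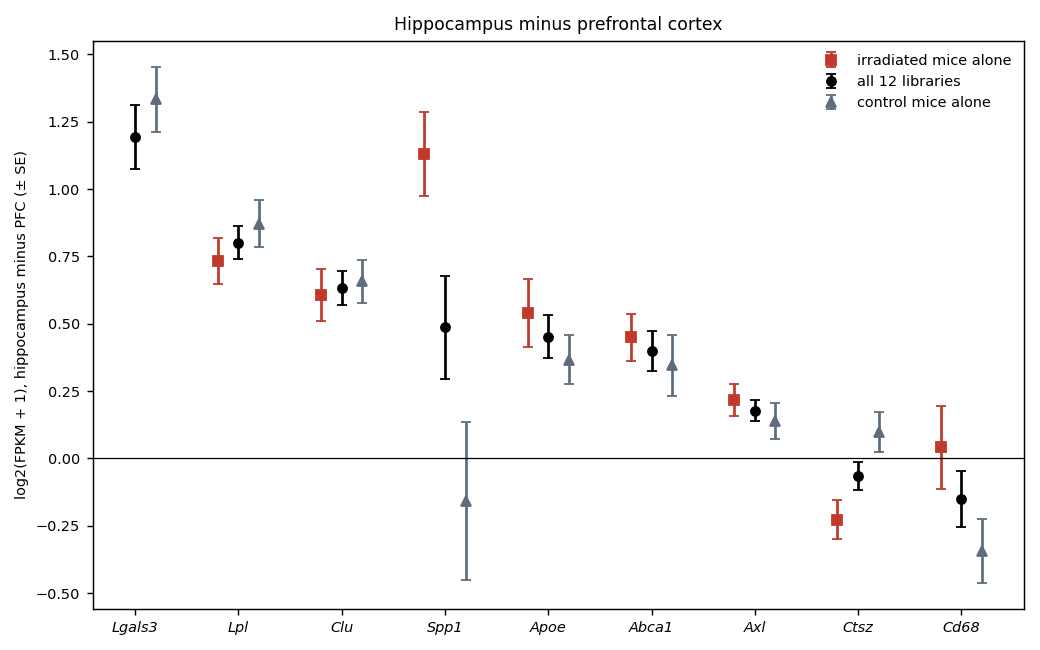
Hippocampus minus prefrontal cortex for the 9 genes that averaged 1 FPKM or more, as log2(FPKM + 1), in irradiated mice alone (squares), over all 12 libraries (circles) and in control mice alone (triangles), with bars for ± SE; Lgals3 averaged under 1 FPKM in irradiated mice alone. Over all 12 libraries Lpl and Clu stand at 0.80 and 0.63, Lgals3, which passed the filter only through hippocampus, stands at 1.19, and Spp1 is the gene whose 2 separate estimates lie farthest apart.

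Markers of other cell types differed with region beside these genes. Over all genes, 23.1% were called higher in hippocampus and 22.8% lower. Astrocyte markers were called higher in hippocampus for 9 of 11 genes and lower for 0, with Gfap at 2.19 and Aqp4 at 0.87 on the log2 scale, and their sum was 1408 to 1565 FPKM in hippocampus, against 1029.7 to 1196 FPKM in prefrontal cortex. Markers of oligodendrocytes and myelin were called higher for 12 of 12. Choroid plexus markers summed to 128 to 6667 FPKM in hippocampus, against 63.7 to 139.7 FPKM in prefrontal cortex, and ependymal markers to 49.6 to 96.4 FPKM, against 16.1 to 27.4 FPKM, and some of these markers passed the filter only through hippocampus. Homeostatic microglia had 2 of 18 markers called higher (Olfml3, 0.23, and Sall1, 0.17), a smaller share than over all genes. Their sums were 336 to 386 FPKM in hippocampus, against 320 to 372 FPKM in prefrontal cortex. Neuronal markers were called lower in hippocampus for 7 of 10 and higher for 2, and endothelial markers lower for 8 of 11. In bulk tissue fewer cells of a type and less RNA per cell cannot be told apart, and the part of these cell types in the regional differences was not tested. Without irradiated hippocampus 2, which lacked most choroid plexus RNA, Apoe stood at 0.49, Clu at 0.67 and Lgals3 at 1.29.

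Among other genes of the disease-associated state, 8 of 19 tested were called higher in hippocampus and 1 lower (Ank), with a median of 0.17, against 0.00 over all genes. These shares, and those of the lists that follow, stand beside 23.1% of all genes called higher and 22.8% called lower. Without irradiated hippocampus 2 the counts were 7 and 0 of 19. The tetraspanins Cd9 and Cd63 differed by 0.93 ± 0.11 and 0.99 ± 0.13, the ferritin heavy chain Fth1 by 0.47 ± 0.07 and the microglial growth factor Csf1 by 0.40 ± 0.06. Between irradiated and control mice 0 of these genes were called in either region by limma. In hippocampus, 3 of 20 had an unadjusted p under 0.05, all lower, and 2 of 20 had one without irradiated hippocampus 2. Among the 3 were the lipid receptor Trem2 (11.3 FPKM in irradiated against 15.1 FPKM in control mice, log2 difference -0.39 ± 0.07, limma adjusted p = 0.417) and its adaptor Tyrobp (-0.19 ± 0.06, limma adjusted p = 0.475). In prefrontal cortex 14 of 19 had a negative difference and 4 an unadjusted p under 0.05, with Fabp5, a fatty acid carrier, at -0.31 ± 0.08 (limma adjusted p = 0.436) and Tyrobp at -0.35 ± 0.12 (limma adjusted p = 0.554).

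None of the lysosomal genes around Cd68, Ctsz and Cst7 was called by irradiation. Of 25 tested in hippocampus, 23 had a negative difference, with a median of -0.10, against -0.01 over all genes, and limma called 0, with 3 at an unadjusted p under 0.05. Without irradiated hippocampus 2, 21 of 25 were negative, with a median of -0.06, and 0 had an unadjusted p under 0.05. In the fit of all libraries the smallest p was that of the protease cathepsin S, Ctss, at 53.4 FPKM in irradiated against 63.5 FPKM in control hippocampus (-0.24 ± 0.10, limma adjusted p = 0.475). In prefrontal cortex 18 of 26 were negative and 0 were called (2 at an unadjusted p under 0.05), with cathepsin K, Ctsk, at 1.79 FPKM in irradiated against 2.55 FPKM in control mice (-0.35 ± 0.10, limma adjusted p = 0.476). Between the regions, 12 of 26 were called higher in hippocampus and 3 lower, and the same counts were found without irradiated hippocampus 2. Cathepsin C, Ctsc, differed by 0.79 ± 0.10, and Cst6, a cystatin, by -0.53 ± 0.08. Cst6 passed the 1 FPKM filter only through prefrontal cortex, so its difference is a description.

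Genes of lipoprotein particles, their receptors and cholesterol efflux had about as many positive as negative differences by irradiation. In hippocampus 11 of 22 were positive and 11 negative, in prefrontal cortex 13 and 9, and limma called 0 in each, with 1 at an unadjusted p under 0.05 in each region. These were Lrp1, a receptor for Apoe particles, in hippocampus (0.18 ± 0.07, limma adjusted p = 0.475) and Sorl1, a sorting receptor, in prefrontal cortex (44.5 FPKM in irradiated against 33.5 FPKM in control mice, 0.39 ± 0.11, limma adjusted p = 0.461). Without irradiated hippocampus 2, 11 of 22 were again positive in hippocampus, and 2 had an unadjusted p under 0.05. Between the regions 9 of 22 were called higher in hippocampus and 4 lower, against 23.1% and 22.8% of all genes. The phospholipid transfer protein Pltp differed by 0.87 ± 0.12, the receptor Lrp10 by 0.78 ± 0.07, the cholesterol-esterifying enzyme Lcat by 0.66 ± 0.07 and the carrier Apod by 0.52 ± 0.10.

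Of the genes that mature, anchor or inhibit lipoprotein lipase, or act beside it on lipids, 6 were tested between the regions. Of these Pnpla2, the first lipase of stored fat, was called higher in hippocampus (0.18 ± 0.05) and Mgll, which cleaves monoglycerides, lower (-0.40 ± 0.07). By irradiation 0 were called in either region, with 1 of 6 at an unadjusted p under 0.05 in hippocampus (Mgll, -0.18 ± 0.07) and 0 of 7 in prefrontal cortex. Without irradiated hippocampus 2 the hippocampal count was 0 of 6. Gpihbp1, which anchors the lipase to vessels, was listed at 0 in all irradiated libraries and averaged 0.115 FPKM in hippocampus, against 0.0639 FPKM in prefrontal cortex, of control mice. The inhibitor Angptl4 averaged 1.07 ± 0.130 FPKM in irradiated and 0.647 ± 0.219 FPKM in control hippocampus, under the filter.

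Of osteopontin's receptors, 4 of 7 were called higher in hippocampus and 2 lower, against 23.1% and 22.8% of all genes. Among these, Itga8 passed the 1 FPKM filter only through hippocampus and Itga9 only through prefrontal cortex, so their calls are a description. Itga4 (0.94 ± 0.08), Itga8 (0.77 ± 0.09), Cd44 (0.43 ± 0.10) and Itgb5 (0.32 ± 0.08) were called higher in hippocampus, Itgav (-0.63 ± 0.09) and Itga9 (-0.41 ± 0.08) lower, and Itgb1 was not called (0.11 ± 0.05, limma adjusted p = 0.106). By irradiation limma called 0 of 6 in hippocampus and 0 of 7 in prefrontal cortex, with 1 and 0 at an unadjusted p under 0.05. Without irradiated hippocampus 2 the hippocampal count at such a p was 0. Cd44 averaged 2.12 FPKM in irradiated against 1.58 FPKM in control hippocampus (0.28 ± 0.15, limma adjusted p = 0.521), and Itgb5 17.6 FPKM and 21.0 FPKM (-0.24 ± 0.10, limma adjusted p = 0.475). In prefrontal cortex the differences ran from -0.18 (Itga5) to 0.12 (Cd44). Itgb3, Itgb6 and, in hippocampus, Itga5 averaged under 1 FPKM.

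In the Axl family, the ligands Gas6 (0.55 ± 0.08) and Pros1 (0.25 ± 0.06) were called higher in hippocampus, as Axl was, and the sister receptor Tyro3 lower (-1.14 ± 0.05). Tyro3 averaged 32.5 and 29.7 FPKM in irradiated and control hippocampus, against 72.1 and 67.6 FPKM in irradiated and control prefrontal cortex. Mertk, the third receptor, was not called (-0.08 ± 0.06, limma adjusted p = 0.304). By irradiation limma called 0 of 4 in either region, with 0 at an unadjusted p under 0.05. Of 5 other galectins, Lgals1 (0.78 ± 0.15), Lgals3bp, a binding partner (0.75 ± 0.15), and Lgals8 (0.12 ± 0.04) were called higher in hippocampus. In prefrontal cortex Lgals1 stood at 13.5 FPKM in irradiated against 17.5 FPKM in control mice (-0.35 ± 0.07, limma adjusted p = 0.325). Of the 5, 0 were called by irradiation in either region, with 1 in hippocampus and 2 in prefrontal cortex at an unadjusted p under 0.05. Hippocampal differences were negative for 3 of the 5, and for 1 without irradiated hippocampus 2.

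The genes nearest to Spp1 over the 12 libraries were Zfp866, Ranbp3l, Col1a2, Aldh1a2 and Slc7a11. Nearness is the root-mean-square distance between standardized log2(FPKM + 1) values, and over 12893 genes these 5 lay at 0.393, 0.428, 0.466, 0.467 and 0.481. They were picked by this distance on the same 12 libraries. Features they share with Spp1, here and in the next paragraph, are therefore built in and are a description. Col1a2, which encodes a collagen chain, stood at 4.25, 3.44 and 4.20 FPKM in irradiated against 1.65, 2.61 and 3.59 FPKM in control hippocampus. In prefrontal cortex it stood at 2.37, 2.88 and 2.82 FPKM in irradiated against 3.57, 3.59 and 3.44 FPKM in control mice. Like Spp1, it was lowest of all in control hippocampus 1, and its prefrontal groups did not overlap.

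Aldh1a2, which makes retinoic acid in the meninges, stood at 5.61, 5.06 and 5.89 FPKM in irradiated against 1.90, 2.60 and 5.75 FPKM in control hippocampus. In the prefrontal cortex the gene stood at 0.895, 2.25 and 2.11 FPKM in irradiated against 3.22, 3.31 and 3.47 FPKM in control mice. Slc7a11, the cystine importer, ran from 7.20 to 7.60 FPKM in irradiated and 5.11 to 7.19 FPKM in control hippocampus, and from 4.91 to 5.94 FPKM in irradiated and 5.76 to 8.05 FPKM in control prefrontal cortex. The hippocampal groups of Slc7a11 were separated by a narrow gap and its prefrontal groups overlapped. Zfp866, a zinc finger gene, was apart in both regions, at 4.88 to 5.26 FPKM in irradiated and 4.22 to 4.86 FPKM in control hippocampus, and 4.42 to 4.48 FPKM in irradiated and 4.66 to 4.84 FPKM in control prefrontal cortex. Ranbp3l ran from 1.99 to 2.67 FPKM in irradiated and 1.40 to 2.11 FPKM in control hippocampus, which overlap, and from 1.18 to 1.51 FPKM in irradiated and 1.92 to 2.07 FPKM in control prefrontal cortex, which do not. Among the other genes of the set the nearest to Spp1 was Abca1, at 0.782 (rank 188), then Axl at 0.857 (rank 454), while Ctsz lay at 1.76 (rank 12789), near the far end of all genes.

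**Figure D4:**
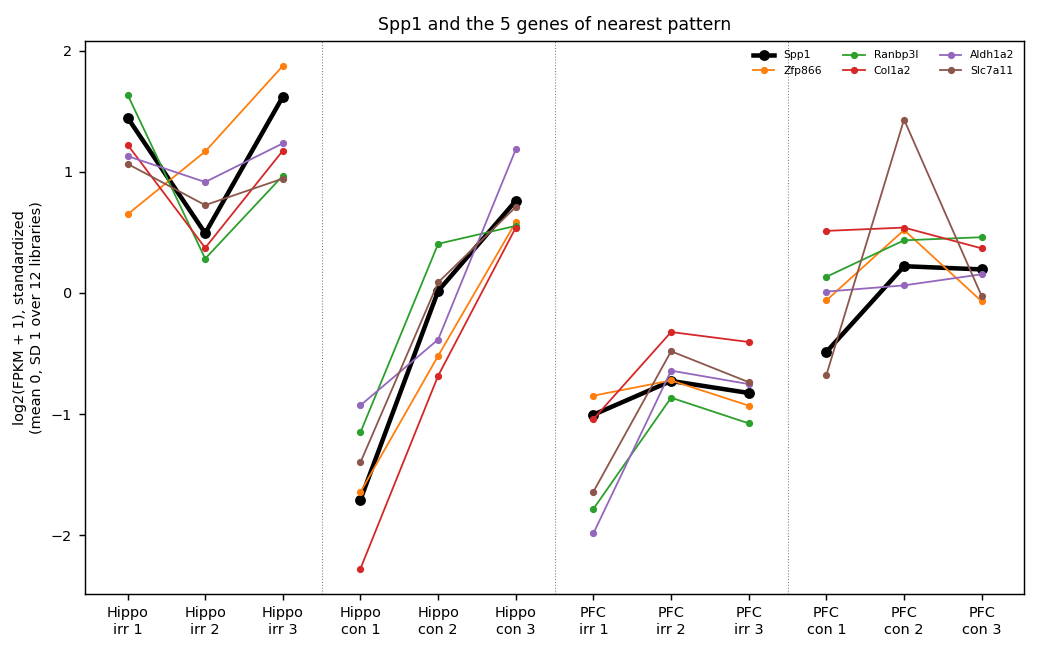
Spp1 (thick line) and the 5 genes of nearest pattern in each of the 12 libraries, as log2(FPKM + 1) standardized to mean 0 and SD 1 over the libraries; irr is irradiated, con is control, and lines only join the values of a gene within a group. Spp1 is lowest in control hippocampus 1 (-1.71) and highest in irradiated hippocampus 3 (1.62).

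Markers of meningeal and perivascular fibroblasts were mostly positive in hippocampus and negative in prefrontal cortex, as Spp1 was. In hippocampus 8 of 11 had a positive difference between irradiated and control mice, with a median of 0.31, and in prefrontal cortex 10 of 10 had a negative one, with a median of -0.37. Over all genes, 53% were negative in hippocampus and 48.8% in prefrontal cortex. Limma called 0 in each, with 5 and 7 at an unadjusted p under 0.05, against 10.5% and 7.23% of all genes. Col1a1 and Slc22a6 are in both counts. They passed the filter only through irradiated mice in hippocampus and only through control mice in prefrontal cortex, so nothing is read from these counts. The list holds Col1a2, named above for its nearness to Spp1, so the likeness is in part built in. Without irradiated hippocampus 2, 10 of 11 were positive in hippocampus, with a median of 0.38, and 8 had an unadjusted p under 0.05. The transporter Slc6a13 averaged 5.10 FPKM in irradiated against 2.39 FPKM in control hippocampus (0.93 ± 0.25, limma adjusted p = 0.474), and 2.04 FPKM in irradiated against 3.95 FPKM in control prefrontal cortex (-0.71 ± 0.17, limma adjusted p = 0.421). The sum of the 12 listed markers was 97.7 to 158 FPKM in irradiated and 126 to 131 FPKM in control hippocampus, and 29.9 to 44.9 FPKM in irradiated and 48.0 to 52.7 FPKM in control prefrontal cortex, so the hippocampal groups overlapped in the sum and the prefrontal groups did not. Of the listed collagens, Col3a1 was under the filter, at 0.648 FPKM in irradiated against 0.290 FPKM in control hippocampus. Col1a1 (1.91 against 0.941 FPKM) and Col1a2 (3.96 against 2.62 FPKM) were above it there. No marker of the list was at 0 in all libraries. The part of these cells in the order of Spp1 was not tested.

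Border-associated macrophages, which also express Spp1, summed to 10.3, 7.60 and 9.75 FPKM over 10 markers in irradiated hippocampus and 4.80, 4.24 and 8.94 FPKM in control hippocampus. In prefrontal cortex they summed to 4.80, 5.13 and 5.67 FPKM in irradiated mice, against 6.78, 5.46 and 6.69 FPKM in control mice. Only 3 of the markers, Cbr2, Stab1 and Pf4, averaged 1 FPKM or more over the hippocampal libraries and were tested. The defining receptor Mrc1 was under the filter, at 1.07 FPKM in irradiated against 0.522 FPKM in control hippocampus. Folr2, also under it, had the opposite order (0.635 against 0.750 FPKM). Limma called 0 of the 3 tested markers, with 0 at an unadjusted p under 0.05, and 1 without irradiated hippocampus 2. In prefrontal cortex 2 were tested and 0 called, and 1 had an unadjusted p under 0.05, the chemokine Pf4 (0.807 FPKM in irradiated against 1.5 FPKM in control mice, -0.47 ± 0.16, limma adjusted p = 0.554). There Pf4 passed the filter only through control mice. Their part in the Spp1 values was not tested.

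Of 18 markers of resting, or homeostatic, microglia 16 had a negative difference in irradiated hippocampus (53% of all genes), with a median of -0.12. Limma called 0, with 3 at an unadjusted p under 0.05, a level reached by 10.5% of all genes. Without irradiated hippocampus 2, 17 of 19 were negative, with a median of -0.08, and 2 had such a p. The marker Aif1 averaged 6.01 FPKM in irradiated against 8.65 FPKM in control hippocampus (-0.46 ± 0.10, limma adjusted p = 0.417). The sum of 19 markers was 336 to 370.1 FPKM in irradiated and 368 to 386 FPKM in control hippocampus, and 320 to 357 FPKM in irradiated and 332 to 372 FPKM in control prefrontal cortex, where 13 of 19 were negative and 1 had an unadjusted p under 0.05. No marker of this list was at 0 in all libraries.

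Astrocyte markers summed to 1408 to 1565 FPKM in irradiated and 1459 to 1534 FPKM in control hippocampus, and to 1029.7 to 1135 FPKM in irradiated and 1099 to 1196 FPKM in control prefrontal cortex. In prefrontal cortex 8 of 11 astrocyte markers had a negative difference and 0 were called, with 2 at an unadjusted p under 0.05. Of these, Gja1 stood at 58.9 FPKM in irradiated against 72.3 FPKM in control mice (-0.30 ± 0.11, limma adjusted p = 0.578). In hippocampus 7 of 11 were negative (5 without irradiated hippocampus 2) and 0 were called. There 4 had an unadjusted p under 0.05 (3 without that library). The 4 were Sox9 (-0.32), S100b (-0.33), Gfap (-0.30) and, with the other sign, Gjb6 (0.33). Over all genes, 53% were negative in hippocampus and 48.8% in prefrontal cortex, and 10.5% and 7.23% had an unadjusted p under 0.05. Choroid plexus markers were negative for 12 of 12 in hippocampus, with a median of -1.14, and ependymal markers for 9 of 9, with a median of -0.33, with 0 called and 0 and 3 at an unadjusted p under 0.05. Without irradiated hippocampus 2 they were negative for 9 of 12, with a median of -0.09, and 8 of 9, with a median of -0.14, and 1 of each list had an unadjusted p under 0.05. Endothelial markers went the other way, positive for 11 of 11 in both regions with 0 called, among them 8 at an unadjusted p under 0.05 in hippocampus (5 without irradiated hippocampus 2) and 1 in prefrontal cortex. The 8 include a gene that passed the filter only through irradiated mice. Markers of oligodendrocytes and myelin were negative for 11 of 12 in hippocampus and 10 of 12 in prefrontal cortex, with 0 called and 4 and 5 at an unadjusted p under 0.05. The hippocampal count was again 11 of 12 without irradiated hippocampus 2. The part of these cells in the values of Apoe, Clu, Lpl and Ctsz was not tested.

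**Figure D5:**
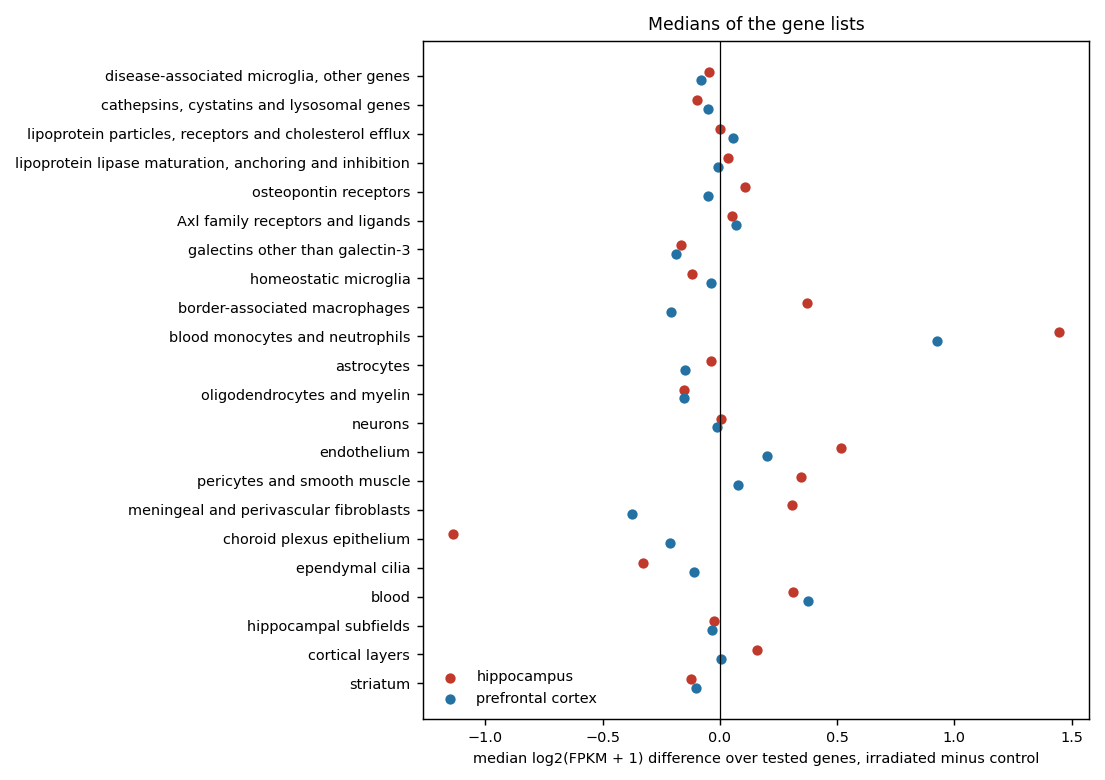
Median difference between irradiated and control mice over the tested genes of each list, as log2(FPKM + 1), in hippocampus and in prefrontal cortex. Meningeal and perivascular fibroblasts stand at 0.31 in hippocampus and -0.37 in prefrontal cortex, the list of blood monocytes and neutrophils rests on 2 genes, and choroid plexus markers were at 128 FPKM in irradiated hippocampus 2.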

How the data were processed

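RNA was extracted with Trizol and made into libraries with a directional kit, per the labels' protocols. The submitters' processing notes name TopHat and mm10 without versions, while the counting tool, annotation and strand use were not given in the sources used here. Per symbol and library, the authors deposited 1 value, read here as FPKM because the values are not whole, their sums differ (381417 to 435534), and value times transcript length summed to 1.20 to 1.25 M in each library. FPKM are relative to the library total, so abundant genes can move all others. Read counts were not used, and depth was estimated.

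Libraries were grouped by title, 3 different mice per group. Differences were fitted in R 4.3.3 with limma 3.58.1, using log2(FPKM + 1), a scale that understates the change of genes near 1 FPKM, keeping genes that averaged 1 FPKM or more, with two-sided tests, Benjamini-Hochberg adjustment over all genes and a threshold of 0.05. The script was tested on simulated data. The 10 genes and the 22 gene lists (7 pathway, 15 marker) were chosen with earlier results of these data known. Named from each list were up to 4 tested genes of smallest p, all osteopontin receptors and Axl family members, and the 5 genes nearest to Spp1. Genes outside this rule (Itgax, Clec7a, Gpihbp1, Angptl4, Col3a1, Mrc1, Folr2, Ank and Sall1) were named after their values were seen. Per the titles, libraries of equal number and treatment are 1 mouse, and deviations from group means correlated between its 2 regions at r = -0.01 to 0.30. Irradiated and control mice share only numbers. Alternatives were a pseudocount of 0.1, no filter, equal totals, median-of-ratios scaling, robust moderation, a replicate block, 1 fit over 12 libraries, each treatment alone, and each library left out. List counts without irradiated hippocampus 2 were added after seeing the data. Positions are from GENCODE M21 and promoters from RefSeq, and 95.5% of symbols matched GENCODE M21.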

Additional observations from a re-analysis of the deposited data

How the results depend on the processing

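Of the 4 comparisons, hippocampus against prefrontal cortex called 5919 genes, 3922 in control mice alone and 3758 in irradiated mice alone, and 5351 to 5763 when 1 library was left out. By irradiation, hippocampus called 0 genes, 4 at equal totals, 3 with robust moderation and 1 in a fit over all 12 libraries (0 to 1 with a library left out). Prefrontal cortex called 1 gene, 2 without the filter and 0 in the fit over 12 libraries (1 to 4 with a library left out). The difference between regions called 0, and 1 without the filter (0 to 2 with a library left out). With the replicate block the counts were 6523, 0, 1 and 0. That block changed the call of Spp1 between the regions and of no other gene of the set. Axl between the regions was not called in control mice alone (0.14, limma adjusted p = 0.156, against 0.00147 to 0.0266 over its 19 other alternatives). Spp1 was called in 4 of 20 alternatives (limma adjusted p from 0.000972 to 0.733), and Ctsz in 1 of 20, irradiated mice alone. Leaving out the fits of each treatment alone, Spp1 was called in 3 of 18 and Ctsz in 0 of 18. Those single-treatment fits are not independent of the comparison by which the set was chosen, so their calls for its genes are a description. No fitted difference that limma called reversed. With 3 mice per group and about 3 to 11 fragments for Lgals3 in prefrontal cortex, depth limits Lgals3 and Cst7.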
